A study of Mus musculus with 12 samples.

Results

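The genes of cholesterol synthesis and sterol handling were followed in mouse epidermis and in skin papillomas given camphor white oil, abbreviated CWO. The set holds 33 genes chosen by name, of the 23235 gene symbols in the per-library expression files: 8 of the mevalonate and isoprenoid steps, 3 that form squalene and lanosterol, 9 that turn lanosterol into cholesterol, 4 that sense sterols, 4 that move or store cholesterol, and 5 of the liver X receptor branch. Levels were given in FPKM, fragments scaled to transcript length and library size, so levels of different genes can be set side by side. The expression data came from 12 polyA RNA libraries, 3 in each of 4 groups.

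All mice were of the FVB/NJ inbred strain, with no transgene named in the labels. For the normal tissue, shaved back skin received 400 µL of either 20% CWO, an essential oil of the camphor tree, or the vehicle acetone, and 24 h later the epidermis was split off with ammonium thiocyanate. The age of these mice is not given in the sources used here, and the label states 5 mice without saying whether that number is per treatment. The papillomas, benign tumours of the skin that can precede carcinoma, grew in mice shaved at 6 to 7 weeks of age. These mice received 400 nmol of the carcinogen DMBA once and then 10 nmol of the tumour promoter TPA repeatedly, in acetone, so the vehicle tumours carry both agents too. They were then given 20% CWO or acetone over 6 weeks. Each tumour sample is a pool of 4 like-sized papillomas of 1 mouse, with 3 mice per treatment. In both tissues the 3 samples with the best RNA integrity were sequenced. The epidermis labels do not say that each library came from its own mouse, so p-values there measure the spread between these samples, which may be partly technical.

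Cells build cholesterol from acetyl-CoA through mevalonate, isoprenoid diphosphates, squalene and lanosterol. When membrane sterol is low, SCAP escorts the transcription factor SREBP2 out of the endoplasmic reticulum, and its released fragment turns on the genes of this route; when sterol is high, INSIG proteins hold the complex back. Liver X receptors (LXR) bind oxidised sterols and turn on genes of cholesterol export, so targets of SREBP2 and of LXR often move in opposite directions. In epidermis, cholesterol is also a building block of the lipid sheets of the outer barrier. Of the 33 genes, 21 were listed as SREBP2 targets and 3 as LXR targets (Abca1, Abcg1 and Mylip).

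Windows around transcript starts were read for letters linked with these regulators, since the set is contrasted by its regulators. RefSeq windows of build GRCm38.p6, from 250 bases before to 50 bases after a start, were found for 27 of the 33 genes. The sterol regulatory element core TCACNCCAC, the sequence SREBP2 is known to bind, was present on either strand in 1.24% of all 32851 windows. The 17 SREBP2 targets with an entry have 20 windows, of which 1, that of Hmgcs1, held it. The CCAAT box, bound by the factor NF-Y that works with SREBP2, was present in 37.4% of all windows and in 16 of these 20. By gene it was present at 16 of the 17, with none at Acat2, and at 22 of all 27 genes with a window. An LXR-type direct repeat, taken as 2 copies of GGTNA separated by 5 bases, was present in 0.718% of all windows and at 1 of the 2 LXR targets with a window, Abca1. These are matches of letters and do not show binding.

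The 250 bases before the start are shown for Hmgcs1 with the sterol element core in capitals, for Pmvk, Idi1 and Cyp51 with CCAAT boxes of either strand in capitals, and for Abca1 with the direct repeat in capitals. Mylip is shown as the LXR target without a direct repeat in its window. Pmvk, Idi1 and Cyp51 were added after their values were seen, as genes that rose with CWO in epidermis. Pmvk has another window, from base 89459321 of chromosome 3, which holds no CCAAT box and is not shown. All are written 5′ to 3′ on the strand of the gene.
Hmgcs1 (chr13:119690101-119690350, plus strand): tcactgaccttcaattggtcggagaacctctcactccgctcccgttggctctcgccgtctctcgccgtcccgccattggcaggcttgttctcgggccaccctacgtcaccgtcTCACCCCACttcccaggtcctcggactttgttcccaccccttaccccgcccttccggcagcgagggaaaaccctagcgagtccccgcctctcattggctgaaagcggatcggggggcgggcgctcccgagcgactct
Pmvk (chr3:89454291-89454540, plus strand): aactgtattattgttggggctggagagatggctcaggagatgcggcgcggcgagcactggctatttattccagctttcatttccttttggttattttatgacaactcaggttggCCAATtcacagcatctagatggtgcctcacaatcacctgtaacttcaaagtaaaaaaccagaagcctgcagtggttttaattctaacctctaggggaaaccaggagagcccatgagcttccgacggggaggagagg
Idi1 (chr13:8885356-8885605, plus strand): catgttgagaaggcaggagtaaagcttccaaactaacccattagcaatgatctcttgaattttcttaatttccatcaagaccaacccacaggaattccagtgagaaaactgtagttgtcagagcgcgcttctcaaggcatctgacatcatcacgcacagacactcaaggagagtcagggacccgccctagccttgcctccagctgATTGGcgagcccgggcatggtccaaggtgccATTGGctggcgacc
Cyp51 (chr5:4104698-4104947, minus strand): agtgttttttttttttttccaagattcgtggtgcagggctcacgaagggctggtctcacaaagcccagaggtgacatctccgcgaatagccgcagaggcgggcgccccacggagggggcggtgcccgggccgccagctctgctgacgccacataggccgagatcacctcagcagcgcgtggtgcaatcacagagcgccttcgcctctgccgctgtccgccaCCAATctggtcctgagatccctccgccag
Abca1 (chr4:53159896-53160145, minus strand): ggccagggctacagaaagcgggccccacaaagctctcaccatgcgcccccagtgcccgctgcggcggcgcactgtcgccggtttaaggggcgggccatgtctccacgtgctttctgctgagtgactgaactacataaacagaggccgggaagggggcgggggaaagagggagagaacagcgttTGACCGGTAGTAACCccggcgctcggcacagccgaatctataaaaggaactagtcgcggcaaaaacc
Mylip (chr13:45389492-45389741, plus strand): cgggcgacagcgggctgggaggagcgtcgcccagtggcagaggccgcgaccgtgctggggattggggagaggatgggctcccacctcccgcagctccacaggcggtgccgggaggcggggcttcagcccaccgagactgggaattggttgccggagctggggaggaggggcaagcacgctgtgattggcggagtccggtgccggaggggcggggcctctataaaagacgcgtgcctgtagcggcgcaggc
The sterol element of Hmgcs1 begins at base -137, counted from the transcript start. The CCAAT letters begin at -136 in Pmvk, at -45 and -14 in Idi1 and at -29 in Cyp51, and the repeat of Abca1 begins at -67.

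Of the 33 genes, 32 were above 0 in all 12 libraries and 31 were at 1 FPKM or more in each. Hmgcs1, the enzyme that makes HMG-CoA, was listed at 0 in all 12 libraries. The files place it at 2 loci, on the unplaced part of chromosome 13 of build mm9 (13_random, bases 114710 to 132325 and 308620 to 326235), and it enters no comparison. Whether the 0 reflects its expression was not tested. In vehicle epidermis the highest level of the set was that of Sc4mol, a methyl sterol oxidase now named Msmo1, at 233 ± 41.2 FPKM (SD, n = 3). The lowest was that of Nr1h3, the receptor LXR alpha, at 1.96 ± 0.546 FPKM (SD, n = 3). The plot of FPKM by gene and group shows Abca1 and Abcg1 near the low end in vehicle epidermis, at 4.58 ± 0.782 and 7.06 ± 0.650 FPKM, with Mylip at 20.0 ± 2.91 FPKM above Tm7sf2, Lbr, Hsd17b7 and Ggps1 of the synthesis route (SD, n = 3 each).

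**Figure D1:**
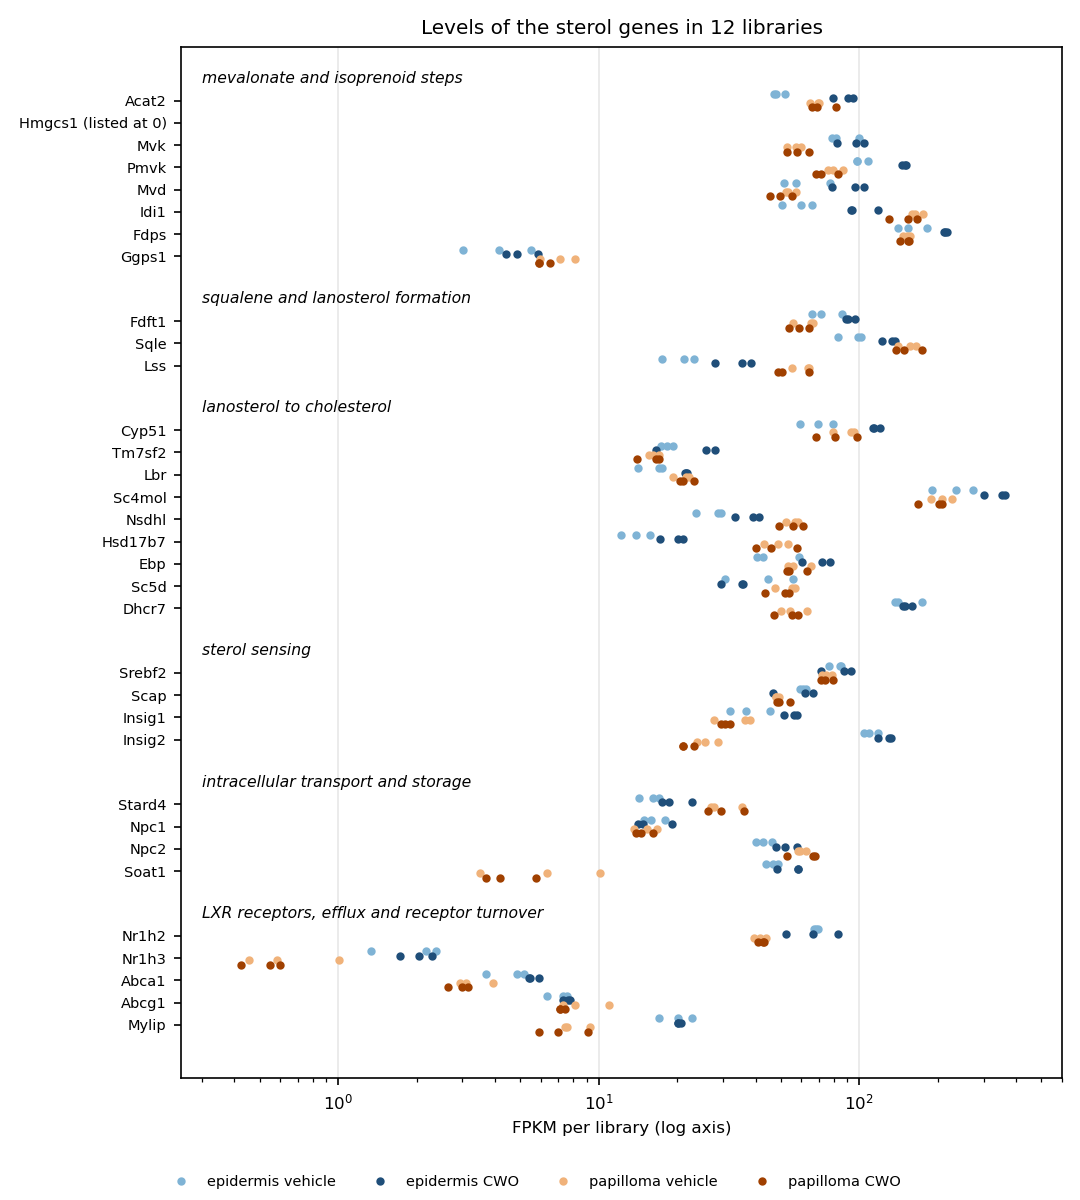
FPKM of each sterol gene in each of the 12 libraries, on a log axis, with genes ordered by role and coloured by group. CWO epidermis lies to the right of vehicle epidermis for Acat2, Pmvk, Idi1 and Cyp51, and both papilloma groups lie far to the left for Soat1 and Insig2.

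The libraries held between 11103563 and 24583874 fragments, recovered from the FPKM and the interval beside it, and 11838 to 12452 genes at 1 FPKM or more. Keratinocyte markers averaged 10.5 to 11.2 on the log2(FPKM + 1) scale in all 12 libraries. Skeletal muscle markers averaged 9.29 and 9.91 in vehicle epidermis libraries 1 and 2, against 7.36 to 7.76 in the other 4 epidermis libraries. None of the 10 muscle markers was at 0 throughout a group. Because tissue was sequenced in bulk, fewer cells of a type and less RNA per cell cannot be told apart.

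CWO on normal epidermis was compared with vehicle to ask what the oil does to this pathway after 24 h. The enzymes Acat2, Pmvk, Idi1 and Cyp51 of cholesterol synthesis rose. Their mean FPKM (± SD, n = 3 each) went from 48.9 ± 2.43 to 88.0 ± 8.03, from 101 ± 5.53 to 149 ± 3.21, from 58.6 ± 7.65 to 102 ± 14.1 and from 69.2 ± 9.90 to 116 ± 4.02. No gene of the set was called lower. The rest of the synthesis route was mostly higher without passing the test, and the LXR targets differed little. Of 32 genes tested 4 were called, all higher, where 1.82% of all 12287 genes tested were called higher, 0.179% lower and 2% in either direction. A call is a Benjamini-Hochberg adjusted p under 0.05 from limma on log2(FPKM + 1), which understates the change of low genes.

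Acat2, which joins acetyl-CoA units at the entry of the route, was at 47.2, 51.7 and 47.9 FPKM in the vehicle libraries and at 94.3, 90.7 and 79.0 FPKM in the CWO libraries. Every CWO library lay above every vehicle library. Its log2 difference of 0.83 ± 0.108 (SE) had a limma adjusted p of 0.00927. Mouse Acat2 has a close copy, Acat3, and reads could be divided between them: Acat3 was listed at 7.35, 8.00 and 7.07 FPKM under vehicle and 14.7, 15.2 and 11.8 FPKM under CWO, so both entries were higher in each CWO library.

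Pmvk, the kinase that follows mevalonate kinase, was at 97.8, 108 and 98.2 FPKM under vehicle and at 150.3, 151 and 145 FPKM under CWO. The 2 groups were far apart next to their spread. Its log2 difference was 0.55 ± 0.0959 (SE), with a limma adjusted p of 0.0274.

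Idi1, which converts isopentenyl diphosphate into its isomer, was at 50.5, 59.6 and 65.7 FPKM under vehicle and at 93.3, 94.2 and 118 FPKM under CWO. Again the groups did not overlap. On the log2 scale Idi1 differed by 0.79 ± 0.140 (SE), with a limma adjusted p of 0.0303.

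Cyp51, the demethylase that takes lanosterol onward, was at 59.4, 79.2 and 69.2 FPKM under vehicle and at 113, 114 and 120.4 FPKM under CWO. All CWO values lay above all vehicle values. The log2 difference was 0.74 ± 0.123 (SE), with a limma adjusted p of 0.0244. The authors' deposited table of the epidermis comparison holds Acat2 with a log2 fold change of 0.89 and an adjusted p of 2.26e-05, and Cyp51 with 0.72 and 0.000495. Neither Pmvk nor Idi1 is listed there.

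Between Acat2 and Cyp51 the other enzymes of the route differed in the same direction without a call. Lss, which closes squalene epoxide into lanosterol, was at 17.5, 23.2 and 21.2 FPKM under vehicle and at 35.4, 38.5 and 27.9 FPKM under CWO. These groups did not overlap, and the log2 difference was 0.69 ± 0.154 (SE) with a limma adjusted p of 0.0700. Sqle, the squalene epoxidase, went from 94.2 ± 9.98 to 131 ± 7.83 FPKM (SD, n = 3 each). Mvd, Fdps and Fdft1, which make isopentenyl diphosphate, farnesyl diphosphate and squalene, had log2 differences of 0.59, 0.44 and 0.31. Mvk, the mevalonate kinase, and Ggps1, which makes geranylgeranyl diphosphate on a side branch, overlapped between groups at log2 differences of 0.13 and 0.23.

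The late enzymes followed the same split. Sc4mol, Nsdhl and Hsd17b7, which together strip methyl groups from the sterol ring, had log2 differences of 0.56, 0.46 and 0.46, and in each the CWO libraries lay above the vehicle libraries. Ebp, a sterol isomerase, stood at 0.56 and Lbr, a sterol reductase of the nuclear envelope, at 0.40, also with groups apart. Tm7sf2, another reductase of the same step as Lbr, was at 27.8 and 25.9 FPKM in CWO libraries 1 and 2 but at 16.6 FPKM in library 3, below all 3 vehicle libraries. Dhcr7, a final reductase, did not move beyond its spread, at 151 ± 20.1 FPKM under vehicle and 152 ± 6.36 FPKM under CWO (SD, n = 3 each). Sc5d, the desaturase before it, was the one SREBP2 target with a negative difference, at -0.33 ± 0.202 (SE), and its groups overlapped.

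The regulators did not pass the test. Srebf2, which encodes SREBP2, was at 76.5, 85.1 and 84.3 FPKM under vehicle and at 87.0, 92.8 and 71.5 FPKM under CWO. The CWO values spanned the vehicle values, and the log2 difference was 0.02 ± 0.123 (SE). Scap, its escort, stood at -0.08 and Insig2, the retention protein, at 0.20, both with overlapping groups. Insig1, the retention protein that is itself an SREBP2 target, was at 36.8, 31.9 and 45.5 FPKM under vehicle and at 56.3, 57.9 and 51.5 FPKM under CWO. Its groups did not overlap, with a log2 difference of 0.54 ± 0.140 (SE) and a limma adjusted p of 0.111.

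Export and storage genes showed smaller differences. Abca1, which moves cholesterol out of cells, was at 4.87, 3.70 and 5.19 FPKM under vehicle and at 5.42, 5.47 and 5.88 FPKM under CWO. The groups were apart by a small margin, and the log2 difference was 0.25 ± 0.145 (SE) with a limma adjusted p of 0.508. Abcg1, a partner in export, and Mylip, a ubiquitin ligase that removes lipoprotein receptors, overlapped between groups at log2 differences of 0.09 ± 0.122 and 0.03 ± 0.127 (SE). Nr1h3 and Nr1h2, the receptors LXR alpha and beta, stood at 0.05 and -0.05. Stard4, a carrier of cholesterol between membranes, and Npc2, which hands cholesterol out of lysosomes, stood at 0.29 and 0.27 with groups apart. Soat1, which stores cholesterol as esters, and Npc1, the lysosomal partner of Npc2, stood at 0.23 and -0.02 with groups that overlapped.

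**Figure D2:**
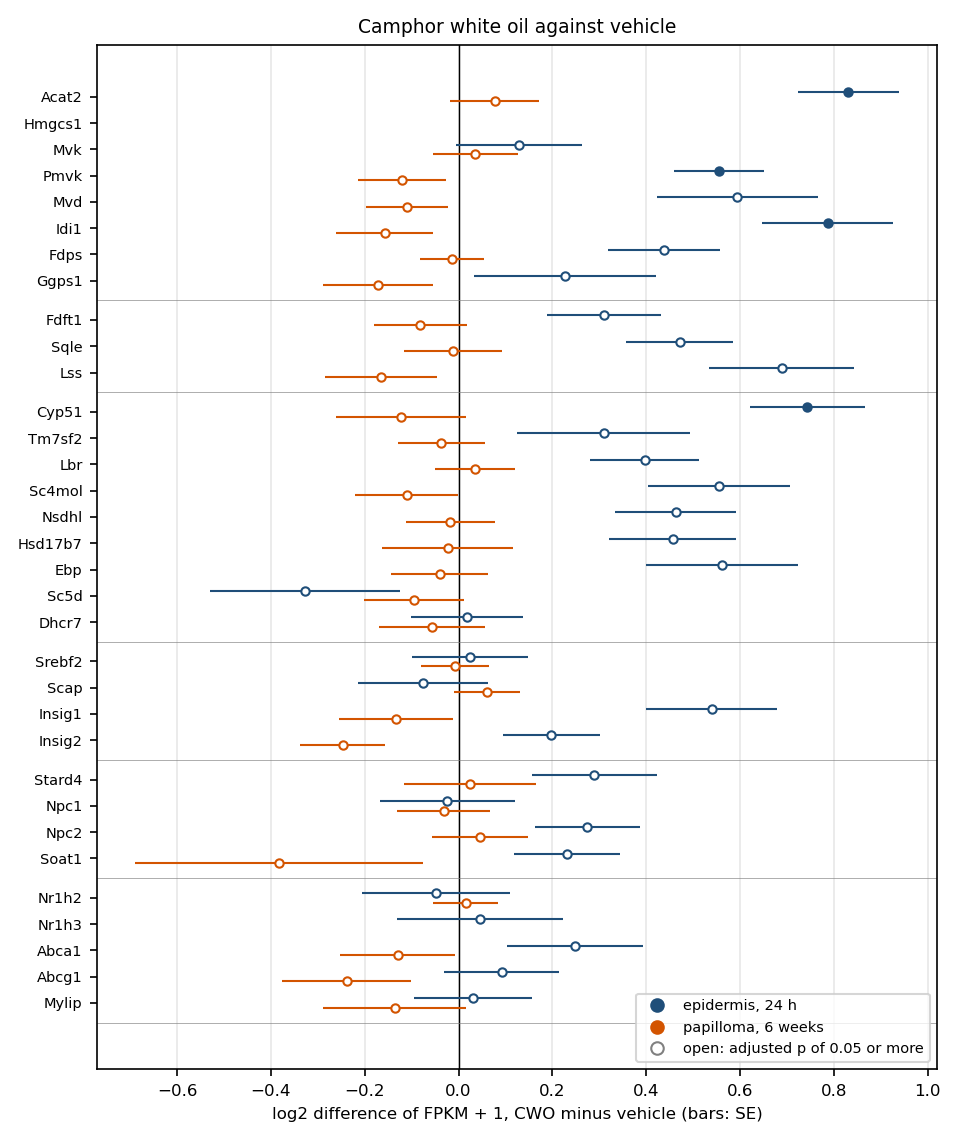
Log2 difference of FPKM + 1, CWO minus vehicle, for each sterol gene in epidermis (blue) and papilloma (orange), with standard errors as bars and filled points for an adjusted p under 0.05. The 4 filled points are all of epidermis, at 0.55 to 0.83, while the papilloma points lie close to 0.

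By regulator, 19 of 20 measured SREBP2 targets had a positive difference in epidermis, against 55% of all genes tested, and their median log2 difference was 0.47 against 0.02 over all genes. In 15 of the 20 the CWO libraries lay wholly above the vehicle libraries, and over the whole set this held for 18 of 32 genes, against 12.1% of all genes tested. No gene of the set lay wholly below, against 6.67%, and 18.7% of all genes were apart in either direction. The 3 LXR targets had a median of 0.09, with Abca1 alone apart. The mean level of the 20 SREBP2 targets was 5.67, 5.89 and 5.85 on the log2(FPKM + 1) scale in the vehicle libraries and 6.25, 6.29 and 6.14 in the CWO libraries, so the groups did not overlap. The mean of the LXR targets was 3.28, 3.15 and 3.43 under vehicle and 3.40, 3.39 and 3.44 under CWO, and these overlapped. The difference between both means was 2.51 ± 0.190 under vehicle and 2.81 ± 0.107 under CWO (SD, n = 3 each), with vehicle library 2 at 2.73 above CWO library 3 at 2.69.

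**Figure D3:**
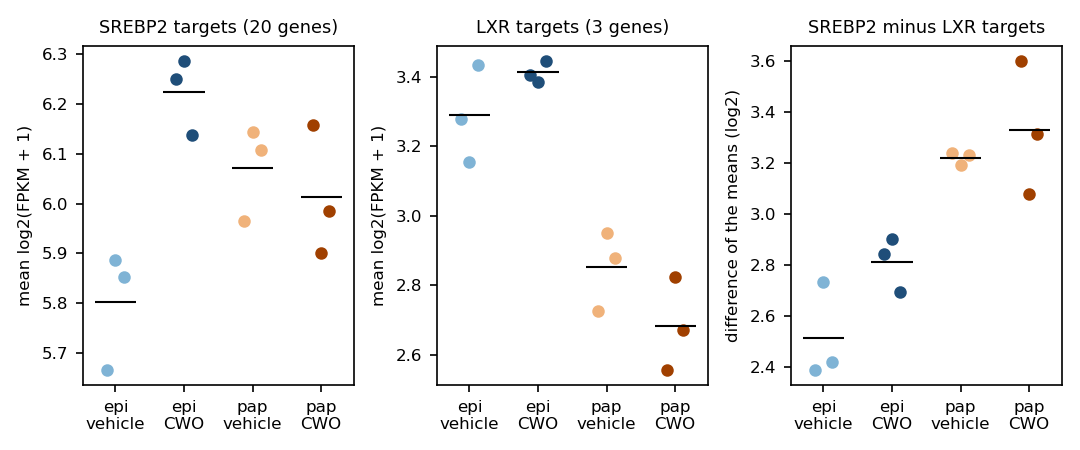
Mean log2(FPKM + 1) per library of the 20 measured SREBP2 targets and the 3 LXR targets, and the difference of these means, with a line at each group mean. The SREBP2 target mean is higher in CWO than in vehicle epidermis without overlap. The LXR target mean is lower in papilloma than in epidermis, but Abcg1, 1 of its 3 genes, overlaps between the tissues. Under vehicle Abca1 overlaps too, at a log2 difference of -0.37 without a call, so Mylip alone is apart there. The log2 difference of Abcg1 is 0.27 under vehicle and -0.07 under CWO, neither called.

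The 4 calls rest on few libraries. Leaving out vehicle library 1, 2 or 3 left 1, 2 or 6 genes called, and leaving out CWO library 1, 2 or 3 left 0, 1 or 5. With vehicle libraries 1 and 2 both left out no gene of the set was called, while the log2 differences of Acat2, Pmvk, Idi1 and Cyp51 were 0.86, 0.60, 0.62 and 0.73. The median of the SREBP2 targets lay between 0.37 and 0.53 over the 19 alternative analyses and that of the LXR targets between 0.0042 and 0.14.

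Markers of other cell states and types also differed between the epidermis groups. Of 8 markers of dividing cells 7 rose with CWO in epidermis (limma, adjusted p under 0.05), against 1.82% of all genes called higher. Birc5, a survival protein of mitosis, was among the 7 with a log2 difference of 1.65, and Plk1 was at 1.33 without a call. The mean of the 8 markers was 2.39, 2.15 and 2.86 under vehicle and 4.07, 4.06 and 3.55 under CWO. Sebaceous gland markers, from a gland that is itself rich in lipid synthesis, averaged 6.56 to 6.59 under vehicle and 6.64 to 6.75 under CWO, with summed levels of 1686 to 1752 and 1956 to 2321 FPKM and none at 0. Among them Elovl3, a fatty acid elongase, rose by 1.78 and Scd3, a fatty acid desaturase, fell by 1.95 on the log2 scale. Dermal fibroblast markers went the other way: all 5 tested had a negative difference, with a median of -1.18, where 55% of all genes had a positive one. Of the 5, 2 were called lower, against 0.179% of all genes. The mean of all 6 listed fibroblast markers was 3.24, 2.78 and 2.27 under vehicle and 2.01, 1.41 and 1.86 with the oil, again without overlap. The part of these cell types in the sterol gene differences was not tested. With the muscle mean as a covariate no gene of the set was called, and the 4 log2 differences were 0.87 for Acat2, 0.61 for Pmvk, 0.68 for Idi1 and 0.80 for Cyp51.

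**Figure D4:**
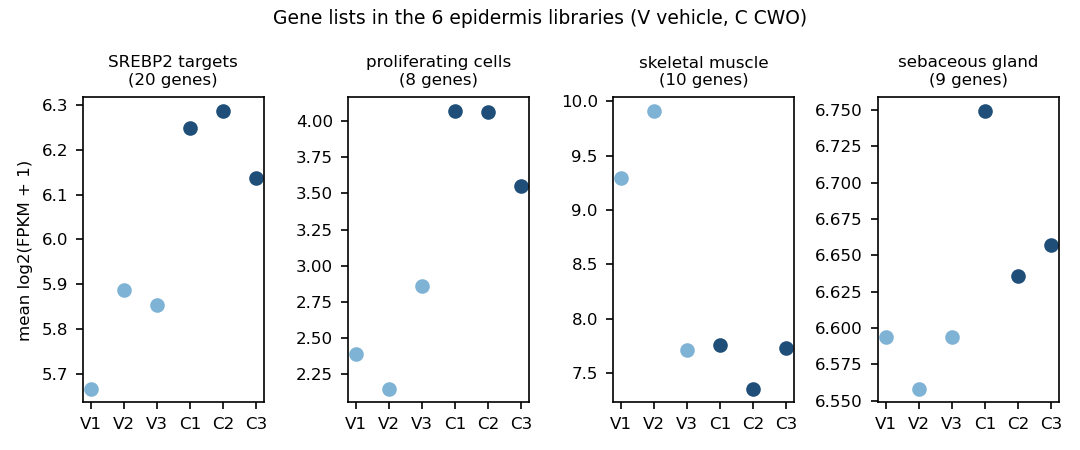
Mean log2(FPKM + 1) of SREBP2 targets and of markers of proliferating cells, skeletal muscle and sebaceous gland in each of the 6 epidermis libraries. SREBP2 targets and proliferation markers are higher in all 3 CWO libraries than in all 3 vehicle libraries, while muscle markers stand out in vehicle libraries 1 and 2.

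Beyond the 33 genes, 40 of 41 listed neighbours of the pathway were found and 36 tested in epidermis, and 2 were called, both higher, against 1.82% of all genes called higher. Pdss1, which builds the side chain of coenzyme Q from farnesyl diphosphate, went from 4.23 ± 1.29 to 18.5 ± 5.54 FPKM (SD, n = 3 each), a log2 difference of 1.88 ± 0.240 (SE). Tmem97, a sterol-responsive membrane protein, went from 35.2 ± 4.29 to 56.3 ± 6.32 FPKM, a log2 difference of 0.66 ± 0.131 (SE). Of 10 genes that supply acetate and electrons or lead into isoprenoid branches, 9 had a positive difference, against 55% of all genes, with a median of 0.18. Of 13 genes of uptake, transport and LXR partners none was called, and their median was 0.01. In SREBP activation and turnover 4 of 9 genes had a positive difference, with a median of -0.03. For oxysterols, sulfates and esters it was 1 of 4, with a median of -0.17. Over all 36 neighbours tested 58.3% were positive, near the 55% of all genes.

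In papillomas, CWO for 6 weeks was compared with acetone. No gene of the set passed the test, and neither did any other gene: 0 of 31 sterol genes and 0% of 12142 genes were called with limma. Over all genes 307 had an unadjusted p under 0.05, and limma-voom on recovered fragments also called 0, with 304 at an unadjusted p under 0.05. The authors' deposited table of this comparison holds 2 genes with a DESeq adjusted p under 0.05, neither of them in the set. Nr1h3, at 0.584, 1.01 and 0.453 FPKM under vehicle and 0.424, 0.599 and 0.547 FPKM under CWO, lay under the limit for testing. Of the 31 genes tested 7 had a positive and 24 a negative difference, with a median of -0.06, against 47.7% positive over all genes. The lean rests on single libraries: without CWO library 1 the positive genes numbered 3 with a median of -0.10, and without CWO library 2 they numbered 14 with a median of -0.0032. Without vehicle library 1 the median was -0.10, without vehicle library 2 it was -0.03, and without CWO library 3 it was -0.09. For the 20 SREBP2 targets the median was -0.05 and for the 3 LXR targets -0.14.

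Insig2 was the one gene of the set whose groups did not overlap in papilloma, a separation seen on the lower side in 3.58% of all genes tested, on the higher side in 3.02% and on either in 6.61%. It was at 25.6, 28.8 and 23.9 FPKM under vehicle and at 23.3, 21.1 and 21.0 FPKM under CWO. The log2 difference was -0.25 ± 0.0904 (SE), with an unadjusted limma p of 0.0270. The next smallest p-values were those of Abcg1, Idi1, Ggps1 and Lss, with log2 differences of -0.24, -0.16, -0.17 and -0.17.

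The genes that rose in epidermis were not called in the tumours. Acat2 was at 64.5, 70.1 and 69.2 FPKM under vehicle and at 81.7, 68.8 and 65.6 FPKM under CWO. Cyp51 was at 79.1, 95.2 and 92.9 FPKM under vehicle and at 98.4, 68.0 and 80.9 FPKM under CWO. In both, CWO library 1 was the highest of the 6. The remaining CWO libraries lay within the vehicle range for Acat2, and for Cyp51 one lay within it and one below it. Pmvk had a log2 difference of -0.12 ± 0.0934 and Idi1 of -0.16 ± 0.103 (SE).

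Regulators and export genes in papilloma gave small differences as well. Srebf2 stood at -0.01 ± 0.0728 and Insig1 at -0.13 ± 0.121 (SE). Abca1 and Mylip stood at -0.13 ± 0.123 and -0.14 ± 0.153 (SE). Soat1 had the largest difference of the set in size, -0.38 ± 0.306 (SE), and its vehicle libraries alone spread over 6.32, 10.1 and 3.49 FPKM. The SREBP2 minus LXR difference was 3.24, 3.19 and 3.23 under vehicle and 3.60, 3.08 and 3.31 under CWO, where CWO library 1 was highest and the groups overlapped. The authors' deposited table of the papilloma comparison gives an adjusted p of 1 for each of the 32 genes with a value.

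The effect of CWO was then compared between tissues in one fit of all 12 libraries. Acat2, Pmvk and Idi1 differed. The CWO difference of Acat2 in papilloma was lower than in epidermis by -0.75 ± 0.141 on the log2 scale (SE, limma adjusted p 0.0329), that of Pmvk by -0.68 ± 0.128 (0.0335) and that of Idi1 by -0.94 ± 0.181 (0.0366). These are 3 of 32 genes, all on the lower side, where 0.736% of 13184 genes were called, and 0.766% on either side. Cyp51 and Lss, at -0.87 ± 0.195 and -0.85 ± 0.206 (SE), did not pass, with adjusted p of 0.0719 and 0.0918. This comparison uses the epidermis and papilloma libraries of the comparisons above, so it is not separate evidence.

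Over the lists, 19 of 20 SREBP2 targets had a negative difference of effects and 1, Sc5d, a positive one, where 42.4% of all genes were positive. Their median was -0.48 against -0.04 over all genes. The 3 LXR targets had a median of -0.33, with Abca1 at -0.38, Abcg1 at -0.33 and Mylip at -0.17, none called. Srebf2 stood at -0.03, Insig1 at -0.67 and Nr1h3 at -0.18, also not called. Among the pathway neighbours Pdss1 was called, at -1.82 ± 0.294 (SE). Tissue, treatment with DMBA and TPA, duration and isolation differ together between the 2 experiments, and their parts in this difference cannot be told apart.

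These 3 calls depend on the scaling and on single libraries. Median-ratio scaling left Acat2, Pmvk and Idi1 with limma adjusted p of 0.114, 0.125 and 0.0750, and with the replicate block they were 0.147, 0.168 and 0.0823, so neither kept a call. With vehicle epidermis libraries 1 and 2 both left out none was called, and with no filter on low values Pmvk alone. Leaving out vehicle epidermis library 1, 2 or 3 left 0, 1 or 4 genes called, and leaving out CWO epidermis library 1, 2 or 3 left 0, 0 or 4. Leaving out vehicle papilloma library 1, 2 or 3 left 0 each, and leaving out CWO papilloma library 1, 2 or 3 left 4, 0 or 0. Under each of these the differences of Acat2, Pmvk and Idi1 kept a negative sign.

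Papillomas were set against epidermis to see how the pathway sits in the tumours, first in the vehicle libraries. The tumours carry DMBA and TPA and were taken by another route than the thiocyanate-separated epidermis, so these factors cannot be told apart from the tissue. Of the 32 genes tested 20 were called, 11 higher and 9 lower, against 70.2% of all 12788 genes tested, 31.8% higher and 38.3% lower. The share called in the set was thus near that of all genes. Groups were apart with the tumours higher in 10 genes and lower in 10, against 33.8% and 40.7% of all genes, or 74.5% in either direction. The largest differences called were those of Hsd17b7, Lss and Idi1 on the higher side and of Soat1, Insig2, Dhcr7 and Mylip on the lower side.

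Hsd17b7, one of the methyl-stripping enzymes, was at 12.1, 13.9 and 15.8 FPKM in vehicle epidermis and at 43.0, 48.6 and 53.1 FPKM in vehicle papilloma. Hsd17b7 thus had the highest log2 difference of the set, 1.72 ± 0.123 (SE). Lss went from 20.6 ± 2.92 to 60.8 ± 5.01 FPKM and Idi1 from 58.6 ± 7.65 to 167 ± 8.40 FPKM (SD, n = 3 each). Both rose about as far, by 1.52 and 1.50 on the log2 scale. Nsdhl, Stard4, Sqle and Ggps1 rose by 1.01, 0.88, 0.71 and 0.64. Acat2, Npc2, Lbr and Cyp51 rose by 0.47, 0.46, 0.36 and 0.36, of which Cyp51 passed the test although its groups overlapped.

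Soat1, which forms cholesterol esters, was at 46.7, 43.9 and 48.7 FPKM in vehicle epidermis and at 6.32, 10.1 and 3.49 FPKM in vehicle papilloma. With -2.73 ± 0.280 (SE) its log2 difference was the lowest of the set, and the tissues did not overlap. Insig2 was at 109, 104 and 118 FPKM in epidermis, while the tumours stood at 25.6, 28.8 and 23.9 FPKM, a log2 difference of -2.04 ± 0.0996 (SE). Dhcr7 went from 151 ± 20.1 to 55.7 ± 6.65 FPKM (SD, n = 3 each), a log2 difference of -1.42. Neither gene's groups came near each other. Mvk, Pmvk and Scap fell by 0.59, 0.33 and 0.32.

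Of the 5 genes of the LXR branch 3 were called lower in the tumours, Mylip, Nr1h2 and Nr1h3, against 38.3% of all genes. Mylip was at 20.2, 17.0 and 22.9 FPKM in vehicle epidermis and at 7.55, 9.27 and 7.45 FPKM in vehicle papilloma. The log2 difference was -1.21 ± 0.138 (SE), with a limma adjusted p of 9.30e-05. Nr1h2 fell by 0.70. Nr1h3, counted among the genes called lower, was tested only because of its epidermis level of 2.36, 2.17 and 1.34 FPKM, while papilloma was at 0.584, 1.01 and 0.453 FPKM, so its difference of -0.81 supports no count. Abca1 stood at -0.37 ± 0.154 (SE, adjusted p 0.0599) and Abcg1 at 0.27 ± 0.156 (SE, adjusted p 0.161), both with overlapping groups. Insig1 and Srebf2 stood at -0.15 and -0.13 with groups that overlapped.

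Among the vehicle libraries the SREBP2 targets were divided, with 8 of 20 called higher and 3 lower, against 31.8% and 38.3% of all genes, and a median of 0.13, against -0.07 over all genes. That median depends on the analysis: it was 0.22 with median-ratio scaling, 0.04 without vehicle epidermis library 1, 0.07 without library 2, 0.08 without vehicle papilloma library 2 and -0.04 with vehicle epidermis libraries 1 and 2 both left out. Of the 20, 10 had a positive difference, against 46.8% of all genes. The LXR targets had a median of -0.37. The SREBP2 minus LXR difference was 2.39, 2.73 and 2.42 in epidermis and 3.24, 3.19 and 3.23 in papilloma, so the groups did not overlap and the tumours were higher by 0.71 on the log2 scale. The SREBP2 mean of 5.96, 6.14 and 6.11 in papilloma lay above the epidermis values of 5.67, 5.89 and 5.85, while the LXR mean of 2.73, 2.95 and 2.88 lay below the epidermis values of 3.28, 3.15 and 3.43.

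Under CWO the same tissue comparison used the other 6 libraries and called 22 of 32 genes, 6 higher and 16 lower, against 68.8% of 12689 genes, 29.1% higher and 39.7% lower. Scaling by median ratios gave 9 higher and 14 lower. Groups were apart with the tumours higher in 8 genes and lower in 15, against 31.4% and 42.7% of all genes, or 74% in either direction. Hsd17b7 was again the highest, going from 19.5 ± 2.07 to 47.8 ± 8.98 FPKM (SD, n = 3 each), a log2 difference of 1.24 ± 0.147 (SE). Lss, Stard4, Idi1, Sc5d and Nsdhl rose by 0.67, 0.61, 0.56, 0.55 and 0.53. Soat1, at 58.4, 48.1 and 58.0 FPKM in the epidermis libraries against 3.70, 4.20 and 5.73 FPKM in the tumours, had the lowest difference, -3.34 ± 0.153 (SE). Insig2, Dhcr7, Mylip and Pmvk followed at -2.49, -1.49, -1.37 and -1.0.

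Several genes were called lower in tumours under CWO and not under vehicle. Mvd, Insig1, Sc4mol, Fdft1, Fdps and Tm7sf2 fell by 0.87, 0.83, 0.82, 0.64, 0.51 and 0.51, and Abca1 by 0.75. The difference between the vehicle and CWO tissue contrasts is the same quantity as the difference of CWO effects given above, in which none of these 7 genes was called. Mvk and Nr1h2 fell by 0.69 and 0.64. Nr1h3, again tested only because of its epidermis level, was at 2.30, 2.04 and 1.73 FPKM there and at 0.424, 0.599 and 0.547 FPKM in the tumours. It is among the 16 genes called lower under CWO but supports no count, and 3 of the 6 fits that leave out 1 library could not test it. Cyp51 was called higher in papilloma under vehicle, at 0.36 ± 0.127 (SE), with groups that overlapped. Under CWO it was called lower, at -0.50 ± 0.136 (SE), where median-ratio scaling left it uncalled at -0.38 (adjusted p 0.0576). Its difference of CWO effects, -0.87 with a limma adjusted p of 0.0719, was not called, so the change of side did not pass a test. Abcg1 and Srebf2, at -0.07 and -0.16, were not called.

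**Figure D5:**
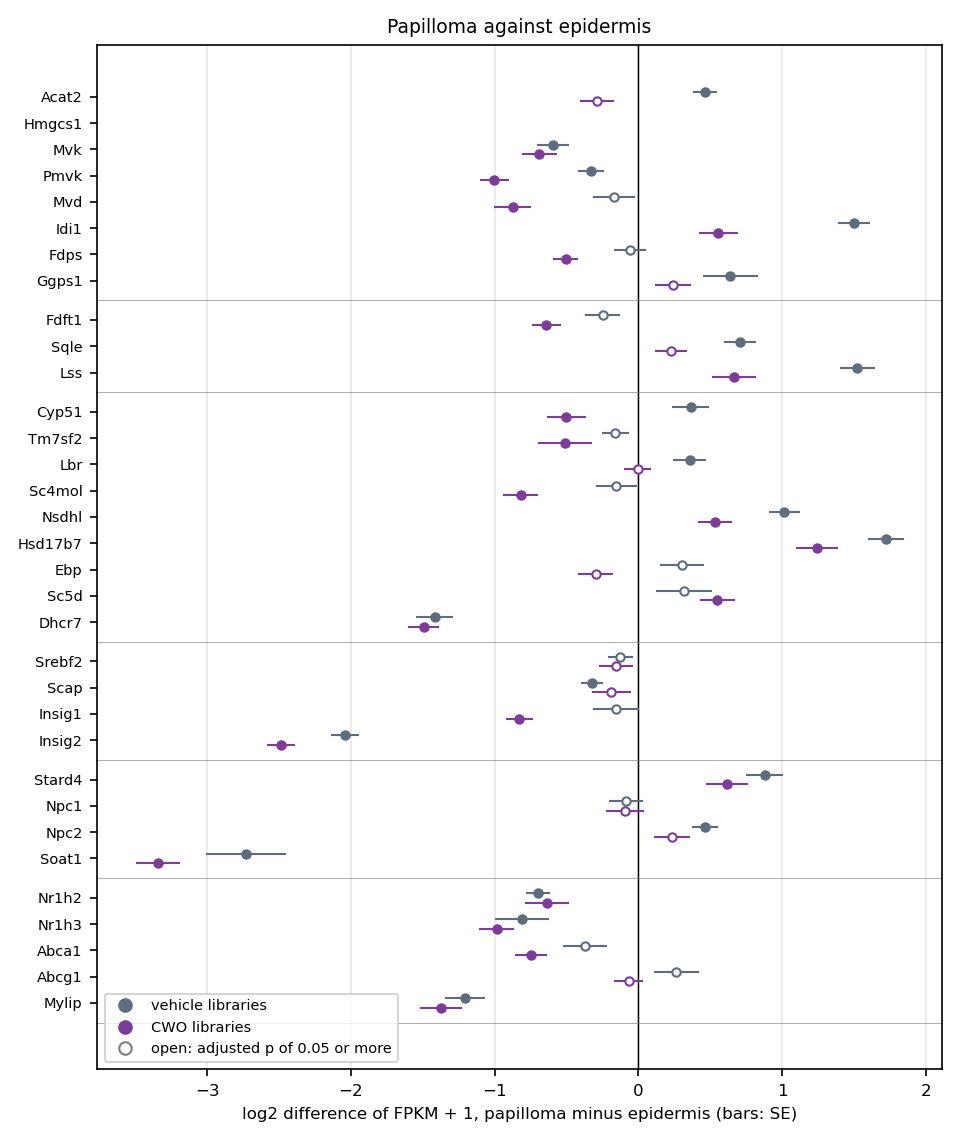
Log2 difference of FPKM + 1, papilloma minus epidermis, for each sterol gene in the vehicle libraries (grey) and in the CWO libraries (purple), with standard errors as bars and filled points for an adjusted p under 0.05. Hsd17b7 lies farthest right in both at 1.72 and 1.24, and Soat1 farthest left at -2.73 and -3.34. Cyp51 lies on the higher side under vehicle and on the lower side under CWO, a difference of CWO effects that was not called.

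By list, under CWO 6 of 20 SREBP2 targets were called higher and 10 lower, against 29.1% and 39.7% of all genes, with a median of -0.40 and 7 of 20 positive, against 44.6% of all genes. The LXR targets had a median of -0.75, against -0.12 over all genes. Scaling by median ratios moved that median over all genes from -0.12 to -0.01 and gave 7 SREBP2 targets higher and 8 lower. The SREBP2 minus LXR difference was 2.84, 2.90 and 2.69 in epidermis and 3.60, 3.08 and 3.31 in papilloma, again without overlap and higher in tumours, by 0.52. The LXR mean of 2.56, 2.82 and 2.67 in papilloma lay below the epidermis values of 3.40, 3.39 and 3.44. The SREBP2 mean of 6.16, 5.90 and 5.98 overlapped that of 6.25, 6.29 and 6.14.

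Some of the smaller tissue calls were lost when 1 library was left out. Under vehicle, Cyp51 was not called without vehicle epidermis library 1 or 3 or without vehicle papilloma library 2 or 3, with adjusted p of 0.0980, 0.0547, 0.101 and 0.0907. Lbr was not called without vehicle epidermis library 2 (0.0558) or vehicle papilloma library 1 or 2 (0.0772 and 0.0700). Pmvk and Ggps1 were not called without vehicle papilloma library 1 (0.0523 and 0.0628). Under CWO, Tm7sf2 was not called without CWO epidermis library 1 or 2 (0.140 and 0.105) or without any one of the CWO papilloma libraries (0.0568, 0.0703 and 0.116). The larger differences of Hsd17b7, Lss, Soat1, Insig2, Dhcr7 and Mylip were called in every alternative run for either tissue comparison.

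Several lists of cell type markers differed strongly between the tissues. All 9 sebaceous gland markers were lower in papilloma, with a mean of 6.56 to 6.75 in the epidermis libraries and 2.19 to 3.65 in the papilloma libraries. Their summed level was 1686 to 1752 FPKM in vehicle epidermis and 89.5 to 246 FPKM in vehicle papilloma, and 1956 to 2321 and 82.1 to 141 FPKM under CWO, with none at 0 throughout a group. All 10 skeletal muscle markers were lower in papilloma in both comparisons, with medians of -6.37 under vehicle and -6.88 under CWO. They summed to 3284 to 16063 FPKM in vehicle epidermis against 35.7 to 341 FPKM in vehicle papilloma, and to 2696 to 3442 against 3.54 to 49.0 FPKM under CWO. The adipocyte markers that could be tested, 3 under vehicle and 4 under CWO, were all called lower, against 38.3% and 39.7% of all genes. In papilloma 2 of the 5 adipocyte markers under vehicle and 4 under CWO were under 1 FPKM in every library. So were 3 sebaceous gland and 2 muscle markers under CWO and 1 muscle marker under vehicle. Such genes could be tested only because of their epidermis level, so their direction supports no count. All 8 proliferation markers were higher in papilloma, at 202.9 to 257 FPKM summed against 30.2 to 146 FPKM in epidermis. Fibroblast markers summed to 335 to 558 FPKM in papilloma and 11.8 to 68.7 FPKM in epidermis. Of 9 macrophage and monocyte markers tested under vehicle 7 were called higher and 2 lower, and of 8 under CWO 5 and 2. Of 6 keratinocyte markers 2 were called higher and 2 lower under vehicle, and 1 and 1 under CWO. Over all genes 31.8% were called higher under vehicle and 29.1% under CWO. In each epidermis group 2 macrophage markers were under 1 FPKM in every library, and these could be tested only because of their papilloma level. The part of these cell types in the lower Soat1, Insig2, Dhcr7 and Mylip or in the higher Hsd17b7, Lss and Idi1 was not tested.

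Of the listed neighbours, 10 were called higher and 17 lower of 37 tested in the vehicle tissue comparison, and 7 higher and 17 lower of 38 under CWO. With 70.2% and 68.8% of all genes called in these comparisons, such counts are near the background and say nothing particular to the neighbours. Cyp7b1, an oxysterol hydroxylase, was at 0.173 ± 0.110 FPKM in vehicle epidermis and 7.81 ± 0.940 FPKM in vehicle papilloma (SD, n = 3 each), and was tested only because of its papilloma level. Lrp1, an endocytic receptor, went from 7.52 ± 0.778 to 29.7 ± 3.08 FPKM. Sult2b1, the sulfotransferase that makes cholesterol sulfate in skin, and Nus1, of dolichol synthesis, rose by 1.53 and 1.32 on the log2 scale. Srebf1, which encodes the fatty acid regulator SREBP1, and Cyb5r3, which feeds electrons to sterol enzymes, fell by 1.38 and 1.70. Under CWO the smallest p-values were those of Cyp27a1, Cyp7b1, Cyb5r3, Lpcat3, Stard5 and Gramd1a, with log2 differences of -2.42, 2.87, -1.60, -1.54, -1.18 and -1.34.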

How the data were processed

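PolyA RNA was sequenced in 12 libraries. Per the submitters' processing notes, bcl2fastq 1.8.4, TopHat2 2.0.4, Cufflinks 2.0.2 and DESeq were used with mouse build mm9. The deposited per-library tables give FPKM per gene, as the authors' Cufflinks made them. The authors' comparison tables give log2 fold changes and adjusted p-values, and the epidermis table lists no gene with an adjusted p-value above 0.00544. Where a symbol had several entries (248 symbols) its FPKM were added up, and values with a status other than OK, of which the sterol genes had none, were set to missing. Fragment numbers were recovered from the FPKM intervals, with 67.9% to 69.2% of values under 500 fragments whole within 0.02.

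Two-sided tests on log2(FPKM + 1) were made in limma 3.58.1 (R 4.3.3), its prior variance following mean expression, over genes of at least 1 FPKM in at least 3 libraries fitted, with Benjamini-Hochberg adjustment over all genes tested and a threshold of 0.05. Short non-coding genes (740) were left out. Each fit held the libraries of the groups compared, and all 12 for the difference of CWO effects. The pipeline was tested on simulated data. Named genes are all that were called in a comparison, or, with fewer than 5 called, the 5 with the smallest p, and always the LXR targets, Srebf2, Insig1 and Nr1h3. Of the neighbouring pathway genes those called were named, at most 6 per comparison by smallest p. Alternatives were other pseudocounts, filters, scaling, limma settings, limma-voom on recovered fragments, a replicate block, 1 fit of all libraries, a muscle covariate and left-out libraries. Members, lists and left-out libraries were chosen with earlier results of these data known. Cell type markers were those of the skeletal muscle, sebaceous gland, macrophage, fibroblast, adipocyte, keratinocyte and proliferation lists.

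Promoter windows were of GRCm38.p6 and the expression files of mm9, and no coordinate was carried between them. Means of marker lists per library, on the log2(FPKM + 1) scale, lay at 1.23 to 3.71 in epidermis and 0.06 to 1.25 in papilloma for adipocytes, and at 1.99 to 2.42 and 2.65 to 3.25 for macrophages and monocytes.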

Additional observations from a re-analysis of the deposited data

Results flagged for a closer look

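The CWO difference was tested between the tissues by the interaction of tissue and treatment, and it passed for 3 sterol genes. The log2 difference of CWO effects, papilloma minus epidermis, was -0.68 for Pmvk, -0.94 for Idi1 and -0.75 for Acat2. All 3 encode enzymes of the mevalonate and isoprenoid steps. Pmvk had a CWO difference of 0.55 in epidermis and -0.12 in papilloma, Idi1 of 0.79 and -0.16, and Acat2 of 0.83 and 0.08.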

How the results depend on the processing

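In epidermis the 4 sterol genes called for CWO became 1 with no filter on low values, 13 in one fit of all 12 libraries, 0 with the replicate block, 0 with vehicle libraries 1 and 2 both left out and 0 with the muscle covariate. For the difference of CWO effects the 3 called became 1 with no filter, 0 with median-ratio scaling, 0 with the replicate block and 0 with vehicle libraries 1 and 2 out. The block cannot change a fold in this balanced design; with it the epidermis call of Acat2, at 0.83, was lost, with a limma adjusted p of 0.0574. The deviations of same-numbered libraries from their group means, gene by gene, correlated at 0.029, -0.444 and -0.363 in epidermis. In papilloma these correlations were 0.279, 0.140 and 0.022. With 3 libraries per group such values cannot settle whether the numbers mark pairs, and they were not taken as pairs. Leaving out 1 library gave 0 to 6 and 0 to 4 genes called in these comparisons, and the SREBP2 minus LXR difference for CWO in papilloma ran from -0.0251 to 0.2361. Over all genes the 246 called in epidermis became 46 with no filter, 55 with the block, 656 in one fit, 12 with vehicle 1 and 2 out, 9 with the covariate and 64 to 685 leaving out 1 library; the 101 of the difference of effects became 63, 59 with limma-voom, 25 with the block, 17 with vehicle 1 and 2 out and 34 to 328. In papilloma the 0 became 4 with the block and 1 in one fit. Counts of sterol genes called stayed at 0 in papilloma CWO and at 17 to 26 in the tissue comparisons. Of 1445 values of named genes under alternatives, 25 took the other sign, all of them small and uncalled. In epidermis, Mylip was -0.0690 with limma-voom, -0.1602 with vehicle 1 and 2 out and -0.1874 with the covariate, and Srebf2 -0.0097, -0.0173 and -0.0205. Leaving out 1 library, Mylip ran from -0.0748 to 0.1267, Srebf2 from -0.0534 to 0.1333 and Nr1h3 from -0.1154 to 0.1476. In papilloma, Srebf2 was 0.0031 with median-ratio scaling and ran from -0.0510 to 0.0267 leaving out 1 library. For the difference of CWO effects, Srebf2 was 0.0148 with median-ratio scaling, 0.0024 with limma-voom and 0.0096 with vehicle 1 and 2 out, ran from -0.1410 to 0.0456 leaving out 1 library, and Mylip was 0.0241 with vehicle 1 and 2 out. Abcg1 between tissues under CWO was 0.0398 with median-ratio scaling. The cause of these shifts was not tested.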
